A study of Mus musculus with 81 samples.

Results

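The Ifi200 family is a group of interferon-inducible genes that lie next to each other on mouse chromosome 1 and encode PYHIN proteins. Its members were taken from a list of 8 names, Ifi202b, Ifi203, Ifi204, Ifi205, Mnda, Mndal, Aim2 and Pyhin1, matched by gene symbol to the probe sets of the array. Of the 24922 probe sets measured, 4 carried the symbol of 1 member alone, namely those of Ifi202b, Ifi203, Ifi205 and Aim2. Ifi204 was measured only by a probe set that is annotated to both Ifi204 and Ifi211, written Ifi204/Ifi211 here, whose signal cannot be assigned to either gene. No probe set carried the symbol Mnda, Mndal or Pyhin1, and these 3 names are not described by values of their own. In the RefSeq gene table Mnda is an older name of Ifi211, Pyhin1 an older name of Ifi209, and Mndal both a gene and an older name of Ifi203. The values below therefore come from 5 probe sets. A further 5 probe sets measured other genes of the cluster, Ifi207, Ifi208, Ifi209, Ifi213 and Ifi214, and are given for comparison.

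A PYHIN protein typically pairs a pyrin domain, through which it binds other pyrin proteins, with a HIN domain that binds double-stranded DNA. Type I interferon raises the transcription of many of these genes, and several of the proteins sense DNA in the cytosol or the nucleus. Aim2 binds cytosolic DNA and recruits the adaptor Pycard, also called ASC, to activate caspase-1, while the Ifi202b product has no pyrin domain and is known to oppose Aim2. The Ifi204 protein takes part in DNA sensing through Sting1 in mouse macrophages, and Ifi202b was named as a lupus candidate gene of NZB mice.

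Neutrophils were sorted as CD11b+ Ly6G+ cells from the bone marrow of male inbred mice aged 6 weeks. RNA of 81 pools, each from 2 or 3 mice, was hybridised to Affymetrix whole-transcript arrays. Sample titles gave 40 strain groups. By common knowledge of the strain names, 5 were taken as wild-derived (WSB/EiJ, PWD/PHJ, MSM/Ms, JF1/Ms and CAST/EiJ) and 35 as classical laboratory strains. A strain was measured on 2 arrays in 37 groups, on 1 array in SWR/J and FVB/NJ, and on 5 arrays in C57BL/6J. All groups share the sort, sex, age and tissue, and KK.Cg-Ay/J is a strain that carries the dominant Ay allele of the agouti locus.

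In 5 groups the title and the background label named different strains. The group titled BPL carried the label BALB/cByJ, the group titled BTBR the label BPL/1J, and the group titled Balb the label BTBR T+ tf/J. The group titled C57BR carried the label CBA/CaJ and the group titled DBA2 the label DBA/1LacJ. These groups keep the word titled throughout, since which label is right was not known. Array medians lay between 97.2 and 114.8 intensity units. NZB/BINJ replicate 1 stood apart, with a median correlation of 0.962 with the other arrays. The rest lay between 0.972, in JF1/Ms replicate 2, and 0.988. The NZB/BINJ and NZW/LacJ comparison and the Ifi202b range are therefore also given without this array. The Ifi202b range and the B cell list are also given without the whole NZB/BINJ strain. All 10 neutrophil genes examined, among them Ly6g, Itgam, Csf3r and S100a8, were measured, and none of them spanned 1 log2 unit between strain means. The F test over strains described below nevertheless called 8 of the 10, beside 55.3% of all genes. Their strain means were high, between 12.41 and 13.88 log2 units. The array probes follow the C57BL/6J sequence, so a variant under a probe and a lower transcript level cannot be told apart in the other strains. Near-identical family genes may also share signal. In sorted pools, fewer cells of a type and less RNA per cell cannot be told apart.

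Promoters are shown because the Ifi204/Ifi211 probe set and other genes of the cluster, Ifi207 above all, had like patterns across strains. RefSeq windows on GRCm38.p6, from 250 bases before to 50 bases after a gene's start, were found for 12 of the 13 cluster genes looked up, with 14 windows in all; Ifi204 had none. They were searched on both strands for the core of the interferon-stimulated response element, which is GAAA, any 2 bases and GAAA, and for the interferon gamma activated site, which is TTC, any 3 bases and GAA. The windows of Ifi211 and Ifi207, of the second start of Ifi203, and of Aim2 follow, each on chromosome 1, 5′ to 3′, with the response element core in capitals. The Ifi211 window is chr1:173912997-173913296 on the minus strand and the Ifi207 window is chr1:173741760-173742059 on the minus strand. The Ifi203 window is chr1:173942443-173942742 on the minus strand and the Aim2 window is chr1:173420354-173420653 on the plus strand.
Ifi211: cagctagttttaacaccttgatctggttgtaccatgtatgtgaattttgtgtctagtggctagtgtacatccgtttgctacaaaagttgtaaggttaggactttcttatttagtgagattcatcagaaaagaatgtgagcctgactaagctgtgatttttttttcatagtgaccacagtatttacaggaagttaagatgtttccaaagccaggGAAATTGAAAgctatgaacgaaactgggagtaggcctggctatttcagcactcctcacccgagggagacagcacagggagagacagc
Ifi207: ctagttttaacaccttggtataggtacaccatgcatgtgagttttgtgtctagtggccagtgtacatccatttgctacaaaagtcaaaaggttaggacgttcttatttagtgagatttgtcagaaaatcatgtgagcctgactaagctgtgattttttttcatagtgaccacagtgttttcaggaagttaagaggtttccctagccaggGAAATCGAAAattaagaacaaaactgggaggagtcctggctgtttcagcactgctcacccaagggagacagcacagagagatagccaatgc
Ifi203: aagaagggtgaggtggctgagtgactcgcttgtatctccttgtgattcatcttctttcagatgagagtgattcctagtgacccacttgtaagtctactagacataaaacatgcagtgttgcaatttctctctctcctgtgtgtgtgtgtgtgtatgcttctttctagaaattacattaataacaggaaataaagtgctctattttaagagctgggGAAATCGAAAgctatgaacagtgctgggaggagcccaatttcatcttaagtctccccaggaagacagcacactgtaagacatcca
Aim2: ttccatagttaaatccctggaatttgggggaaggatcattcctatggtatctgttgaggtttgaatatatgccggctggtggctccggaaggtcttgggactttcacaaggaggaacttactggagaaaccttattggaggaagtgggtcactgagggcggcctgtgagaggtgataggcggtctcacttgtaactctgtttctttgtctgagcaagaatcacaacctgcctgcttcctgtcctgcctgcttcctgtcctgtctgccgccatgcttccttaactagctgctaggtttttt
The core began 37 bases before the start of Ifi211, 41 bases before that of Ifi207 and 35 bases before the second start of Ifi203, and these letters did not occur in the Aim2 window. Of the 14 cluster windows, 10 held the core, from 9 genes, while 3.44% of all 32851 promoter windows in the RefSeq table held it. The exact letters GAAATCGAAA stood in 7 cluster windows, those of Ifi203, Ifi206, Ifi207, Ifi208, Ifi213, Ifi214 and Mndal, out of 16 such windows in the whole table (0.0487% of windows). Ifi211 and Ifi205 instead shared the letters GAAATTGAAA. No core was found in the windows of Ifi202b, Ifi209 and the other start of Ifi203. The activated site was found in 1 cluster window, that of Ifi202b, where it began 148 bases before the start, and in 8.3% of all windows. The windows are related copies: those of Mndal and the second start of Ifi203 were 97.6% identical over 289 aligned bases, those of Ifi211 and Ifi205 94.0% identical over 201, and those of Ifi207 and Ifi211 88.4% identical over 294. A match is a description of the sequence of the C57BL/6J reference and carries no measurement of a factor.

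The first comparison asked which members differed among the 40 strains, with limma's moderated F test over all 81 arrays. Ifi203, Ifi204/Ifi211 and Aim2 varied widely, Ifi202b varied over a narrow range at a low level, and Ifi205 was not called. In all, 4 of the 5 family probe sets had an adjusted p under 0.05, beside 56% of all probe sets, so a call alone says little in these data. A range of at least 1 log2 unit between strain means was reached by 3 of the 5, beside 24.5% of all probe sets. A range of at least 2 log2 units was reached by the same 3, Ifi203, Ifi204/Ifi211 and Aim2, beside 5.19% of all probe sets. Of the other cluster genes, 4 of 5 were called and spanned at least 1 log2 unit (Ifi207, Ifi208, Ifi209 and Ifi213), and Ifi214 was not called (adjusted p = 0.376).

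Ifi203, an interferon-inducible nuclear protein gene, was near its lowest level in most strains and high in 3. Its log2 intensity was 9.26 and 9.50 in the KK.Cg-Ay/J arrays, 8.62 and 9.0 in the arrays titled BTBR and 7.34 and 6.78 in the PL/J arrays, against 3.95, 4.14, 4.20, 4.20 and 4.33 in the C57BL/6J arrays. No array of these 3 strains overlapped with any array of C57BL/6J. Relative to C57BL/6J, Ifi203 was higher by 5.21 ± 0.16 log2 units in KK.Cg-Ay/J (SE, adjusted p = 4.35e-31), by 4.64 ± 0.16 in the group titled BTBR (adjusted p = 6.13e-29) and by 2.89 ± 0.16 in PL/J (adjusted p = 2.63e-20). Ifi203 was called higher in these 3 of 39 strains, while 7.29% of all probe sets were called higher in at least 1 strain. No strain was called lower, but the C57BL/6J mean of 4.16 left little room, as the lowest Ifi203 array read 3.62. The share of probe sets called higher by at least 1 log2 unit was 0.393% in KK.Cg-Ay/J, 1.58% in the group titled BTBR and 0.738% in PL/J. The other 36 strains were not called against C57BL/6J for Ifi203.

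The rest of the Ifi203 order was nearly flat. The 37 lower strain means lay between 3.65 in FVB/NJ, from its single array, and 4.59 in PWD/PHJ, and the widest gap in the order, 2.47 log2 units, followed PWD/PHJ. Of the 39 pairs of strains next to each other in the order, the arrays of 33 overlapped. The C57 strains, C57BL/6J, C57BL/10J, C57BLKS/J(662), C57L/J (668) and the group titled C57BR, had means between 4.16 and 4.57, inside the flat part of the order. The range over strains was 5.73 log2 units (adjusted p = 8.57e-31). How far the flat part of the order stands above background was not known, here and for Ifi204/Ifi211. A variant under a probe can also lower a value, so such ranges may be larger or smaller than those of the transcripts. The residual standard deviation (SD) within strains was 0.20.

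Ifi204/Ifi211 divided the strains more evenly. The genes behind this probe set are Ifi204, a DNA sensor, and Ifi211, once named after the human myeloid nuclear differentiation antigen. Its log2 intensity was 9.69 and 10.12 in the C57BLKS/J(662) arrays, 9.63 and 9.88 in C57L/J (668) and 9.87 and 9.40 in C57BL/10J, against 9.26, 9.16, 9.88, 10.23 and 9.74 in C57BL/6J. These C57 strains overlapped with each other. Among the classical strains outside the C57 group, the arrays of NZW/LacJ (9.16 and 9.24), MA/MyJ (8.11 and 7.93), the group titled BPL (9.88 and 9.47), the group titled BTBR (7.07 and 7.02) and KK.Cg-Ay/J (7.29 and 6.68) were also high.

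The 26 lowest strain means of Ifi204/Ifi211 lay between 4.73 in FVB/NJ and 5.67 in RIIIS/J. A gap of 1.32 log2 units separated RIIIS/J from KK.Cg-Ay/J, and 14 strains lay above it, between 6.98 and 9.90. The 5 C57 strains lay between 9.39 and 9.90, and the other 30 classical strains between 4.73 and 9.67 with a median of 5.00. The range over strains was 5.17 log2 units (adjusted p = 4.96e-37), and the SD of strain means, 1.90, exceeded that of 99.9% of probe sets.

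Against C57BL/6J, Ifi204/Ifi211 was lower by at least 1 log2 unit in 32 of 39 strains and higher in none, while 0.762% of all probe sets were lower in at least 10 strains. The 39 comparisons share the C57BL/6J arrays, so they are not independent. The deficit was -4.92 ± 0.25 log2 units in FVB/NJ (SE, adjusted p = 7.57e-22) and -4.83 ± 0.19 in WSB/EiJ (adjusted p = 2.09e-26). It was smaller in the higher strains, at -1.40 ± 0.19 in CAST/EiJ (adjusted p = 1.43e-07) and -1.63 ± 0.19 in MA/MyJ (adjusted p = 3.14e-09). The strains not called were C57BL/10J, C57BLKS/J(662), C57L/J (668), NZW/LacJ, JF1/Ms and the groups titled BPL and titled C57BR. Of these, JF1/Ms differed at an adjusted p of 0.0216 by -0.64 ± 0.19, short of the 1 unit required.

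**Figure D1:**
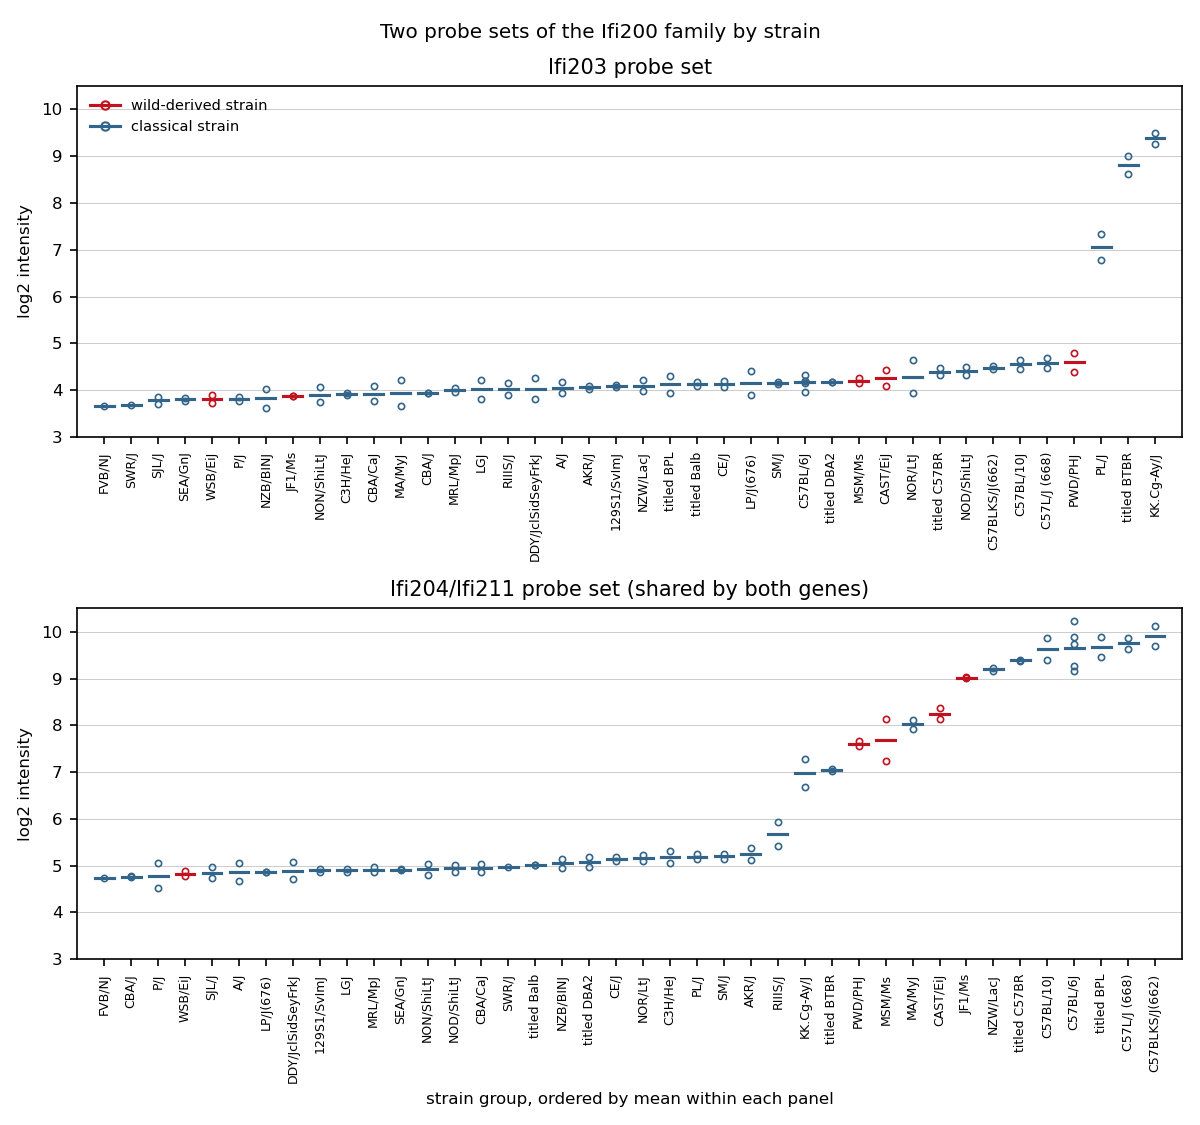
Log2 intensity of the Ifi203 probe set (top) and of the Ifi204/Ifi211 probe set (bottom) in each array (open circles) with the strain mean (bar), for 40 strain groups ordered by mean within each panel, wild-derived strains in red and classical strains in blue. Ifi203 is flat up to 4.59 and then steps to 7.06, 8.81 and 9.38, while Ifi204/Ifi211 has 26 strains at or below 5.67 and 14 at 6.98 or above.

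The Ifi203 and Ifi204/Ifi211 patterns differed in which strains were high. KK.Cg-Ay/J and the group titled BTBR, the highest strains for Ifi203, were the lowest of the 14 strains above the gap for Ifi204/Ifi211, with means of 6.98 and 7.04. PL/J, the third for Ifi203, had arrays at 5.13 and 5.24 for Ifi204/Ifi211, below the gap. The conflicting labels bear on both probe sets. The group titled C57BR had Ifi204/Ifi211 arrays at 9.40 and 9.38, against 4.87 and 5.03 in the CBA/CaJ group, whose name its background label carries. The high Ifi203 group titled BTBR carried the label BPL/1J, and the high Ifi204/Ifi211 group titled BPL carried the label BALB/cByJ, so the strain names of these groups are uncertain.

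Aim2, the sensor of the DNA-driven inflammasome, was the only family probe set with a mean of at least 7 log2 units over all arrays. Its values changed gradually from strain to strain, with PL/J above and the group titled BTBR below all others. The log2 intensity was 9.57 and 9.16 in PL/J and 6.29 and 6.33 in the group titled BTBR, against 8.29, 7.84, 8.65, 8.42 and 8.11 in C57BL/6J. Neither strain's arrays overlapped with those of C57BL/6J, and the difference was 1.11 ± 0.16 log2 units in PL/J (SE, adjusted p = 4.56e-07) and -1.95 ± 0.16 in the group titled BTBR (adjusted p = 3.74e-14). In the group titled BTBR, 0.542% of probe sets were lower by that rule.

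Aim2 was lower than in C57BL/6J by at least 1 log2 unit in 8 of 39 strains, and higher in 1, PL/J. Without PL/J replicate 1 the PL/J difference was 0.90 (adjusted p = 0.00133), short of the 1 unit required, so that call was lost. The 9 calls became 8 to 13 when 1 array was left out, with 13 without C57BL/6J replicate 2. Over the 39 comparisons together, 0.688% of probe set and strain pairs were lower and 0.935% higher by that rule. The 8 strains were KK.Cg-Ay/J, LP/J(676), NON/ShiLtJ, NZB/BINJ, SEA/GnJ, SWR/J and the groups titled BTBR and titled DBA2. At an adjusted p under 0.05 with no minimum difference, 25 strains were lower. The share of all probe sets under this looser rule was not taken, so whether that count is unusual was not known. The Aim2 range was 3.06 log2 units (adjusted p = 9.23e-16), the strain order had arrays that overlapped in 35 of 39 neighbouring pairs, and the widest gap, 0.80, lay between the group titled BPL and PL/J. C57L/J (668), at 7.52 and 7.19, was lower than C57BL/6J by -0.91 ± 0.16 (adjusted p = 2.49e-05), so the C57 strains, alike for Ifi204/Ifi211, spread over 7.35 to 8.26 for Aim2.

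Ifi202b, which encodes the PYHIN protein without a pyrin domain, stayed within 0.72 log2 units over all strains, from 3.50 in the group titled BPL to 4.22 in NZB/BINJ (adjusted p = 0.000458). The NZB/BINJ arrays read 4.08 and 4.37, against 3.64, 3.67, 3.87, 3.76 and 3.45 in C57BL/6J, with no overlap. No strain differed from C57BL/6J by 1 log2 unit. By limma, 4 strains were higher at an adjusted p under 0.05 alone and 7 differed at an unadjusted p under 0.05. No share over all probe sets was taken for these counts. NZB/BINJ was the highest strain, at 0.55 ± 0.12 above C57BL/6J (SE, adjusted p = 0.000611), followed by WSB/EiJ at 0.43 ± 0.12 (adjusted p = 0.00981). Without the whole NZB/BINJ strain, the range was 0.60 and the adjusted p was 0.00241. Leaving out NZB/BINJ replicate 1 alone gave a wider range, 0.87. No probe-level background was used here, so how far these low values stand above background was not known. NZB/BINJ was also the highest strain for other low genes outside the family, among them Apcs (4.82), Cpa3 (4.83) and Il5ra (5.18), none called in the F test. For Ccr9 (4.99) it was the lowest strain. Whether the Ifi202b value in NZB/BINJ belongs to a wider shift of low values was not tested.

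Ifi205, an interferon-inducible member that takes part in macrophage and fat cell gene control in mice, was not called in the F test (adjusted p = 0.0937). Its strain means lay between 4.44 in PL/J and 5.28 in the group titled C57BR, a range of 0.84 log2 units with a residual SD of 0.20 within strains. Leaving out single arrays gave adjusted p-values between 0.0288 and 0.217, and the call was made without either C57L/J (668) array (0.0371 and 0.0393) or without MSM/Ms replicate 2 (0.0288). Against C57BL/6J no strain differed by 1 log2 unit. By limma, 2 strains were lower at an adjusted p under 0.05 alone and 11 differed at an unadjusted p under 0.05. Here too no share over all probe sets was taken.

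**Figure D2:**
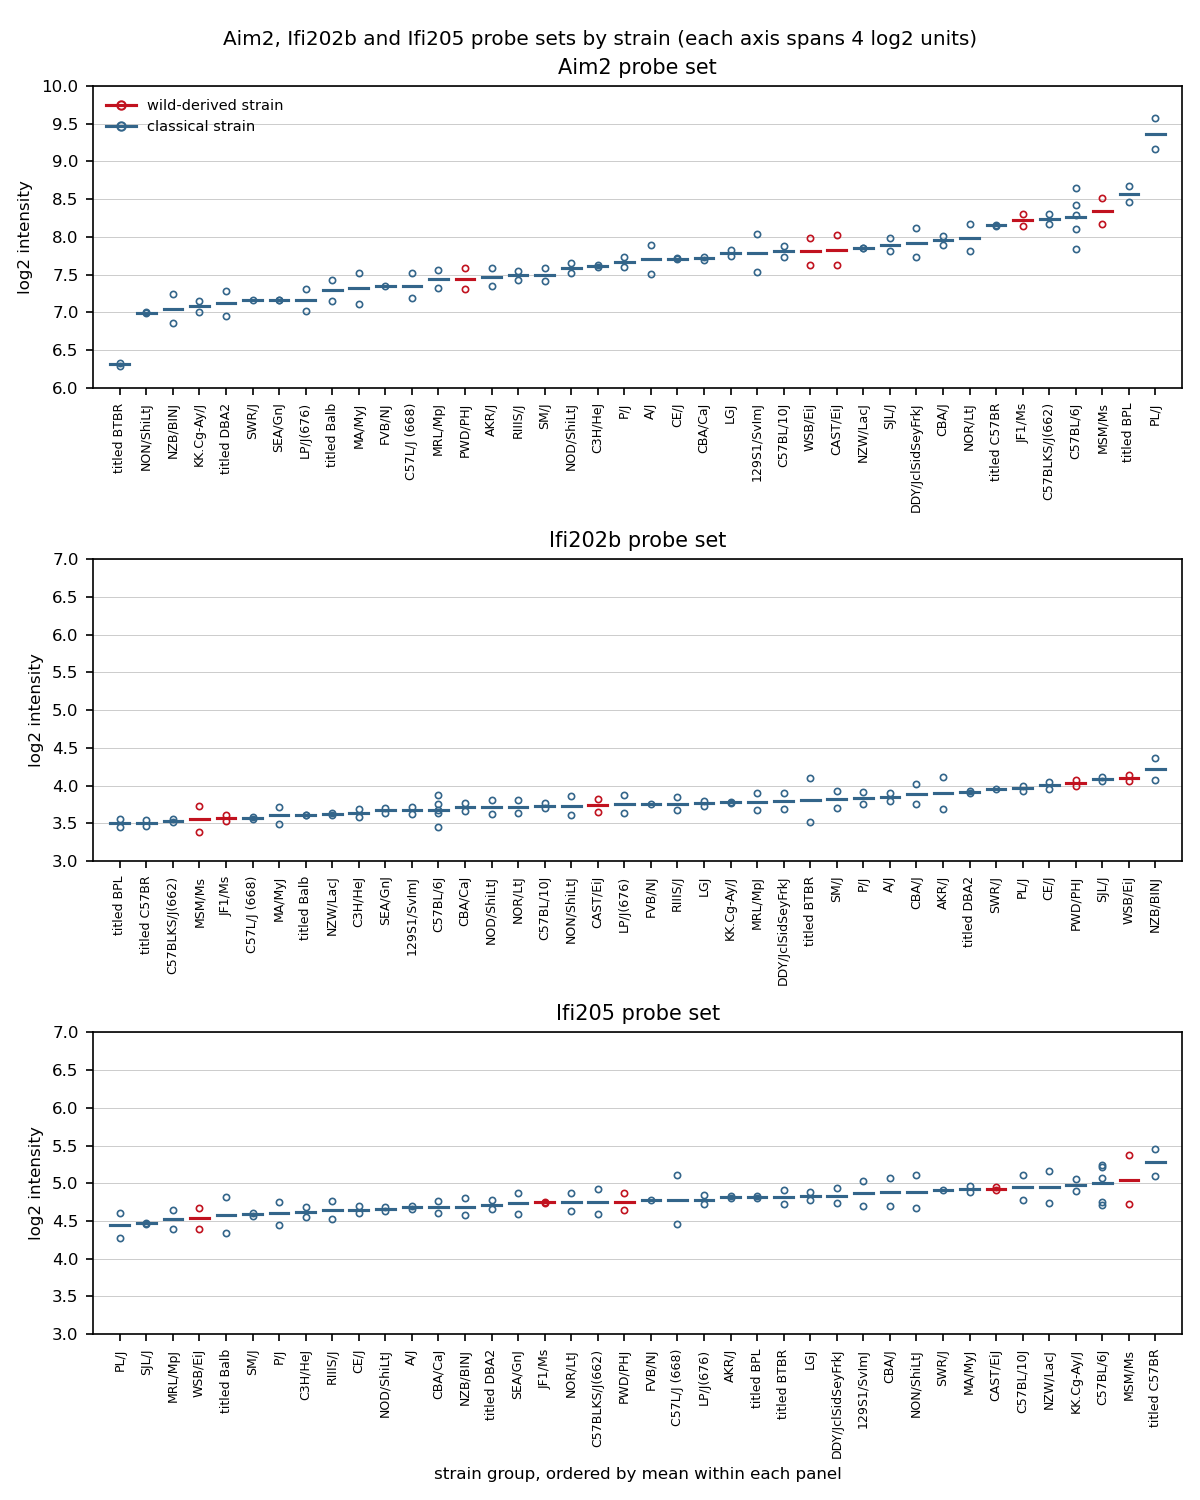
Log2 intensity of the Aim2, Ifi202b and Ifi205 probe sets in each array (open circles) with the strain mean (bar), for 40 strain groups ordered by mean within each panel, on axes of equal length, wild-derived strains in red and classical strains in blue. Aim2 runs from 6.31 in the group titled BTBR to 9.37 in PL/J, while Ifi202b stays between 3.50 and 4.22 and Ifi205 between 4.44 and 5.28.

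The likeness of the members over the 40 strain means was described by Pearson's r, with no p, since the strains are related by descent and the probe sets share arrays and a chromosome region. Ifi204/Ifi211 was most like Ifi207 (r = 0.96, Spearman's rho = 0.88), another PYHIN gene of the cluster. Because the strains fall on both sides of a gap, r was also taken on each side, and it was 0.64 over the 26 lower strains and 0.88 over the 14 higher ones. Without the 2 strains farthest from the median it was 0.95. The Ifi207 arrays read 7.99 and 7.87 in C57BL/10J and 7.60 and 7.57 in NZW/LacJ, against 7.12, 7.35, 8.04, 8.15 and 7.36 in C57BL/6J, and 4.76 and 4.82 in the lowest group, titled DBA2. Against C57BL/6J, Ifi207 was lower by at least 1 log2 unit in 31 of 39 strains.

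Ifi209 and Ifi208 were less like Ifi204/Ifi211, with r of 0.84 and 0.71 over all strains. On the sides of the gap, r was 0.42 and 0.34 over the 26 lower strains and 0.71 and 0.59 over the 14 higher ones. Ifi209 was at a low level, with a mean of 3.90 log2 units and a highest strain mean of 4.84. For Ifi208 and Ifi213 the wild-derived JF1/Ms held the highest mean, at 7.04 and 7.28. Ifi205 had r of 0.55 with Ifi204/Ifi211 over all strains, but -0.20 and -0.01 on the lower and higher side of the gap, so that relation rested on the difference between the sides. Ifi202b ran the other way, with r of -0.56 over all strains, -0.03 over the lower 26 and -0.59 over the higher 14. Ifi203 and Ifi204/Ifi211 had r of 0.15 and rho of 0.60 over all strains, with r of 0.28 over the lower 26 and -0.65 over the higher 14. Ifi203 and Aim2 had r of -0.14 over all strains and 0.25 over the 37 strains below the Ifi203 gap. Without the 2 strains farthest from the Ifi203 median, KK.Cg-Ay/J and the group titled BTBR, r was 0.61, with PL/J high for both, so r over all strains rested on single strains.

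**Figure D3:**
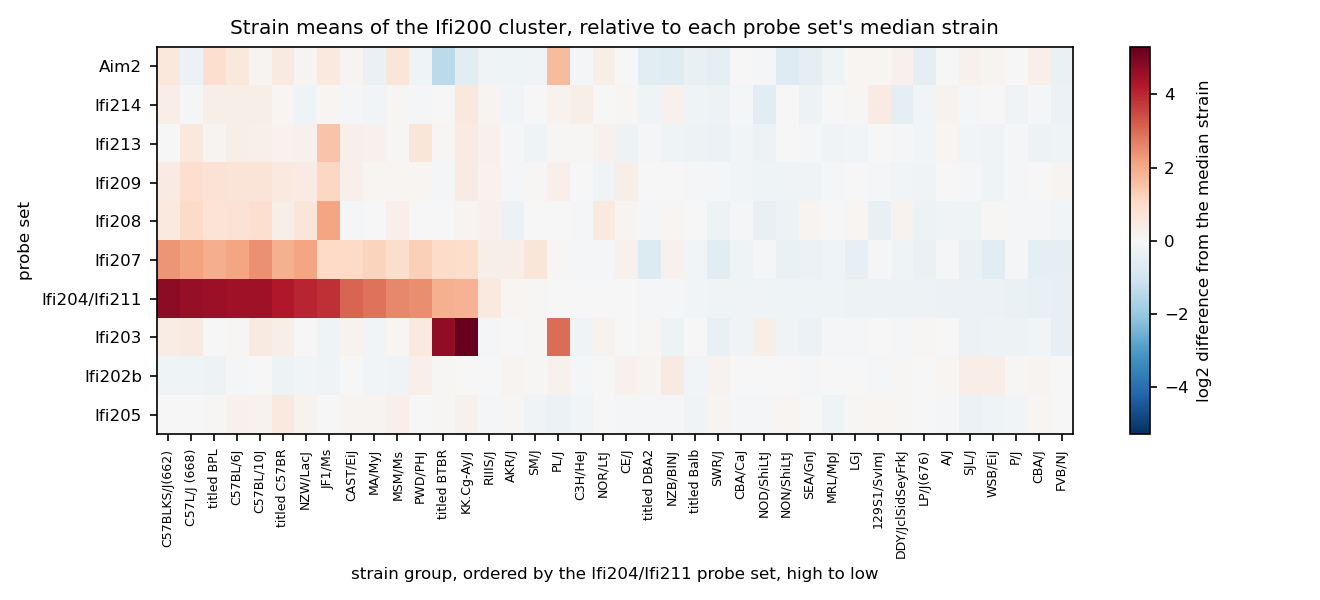
Strain means of the 5 family probe sets and 5 other cluster probe sets, each as a log2 difference from that probe set's median strain, with strains ordered by Ifi204/Ifi211 from high to low. Ifi207 follows the Ifi204/Ifi211 order, Ifi203 is high in PL/J, KK.Cg-Ay/J and the group titled BTBR, and Ifi202b and Ifi205 show little colour.

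**Figure D4:**
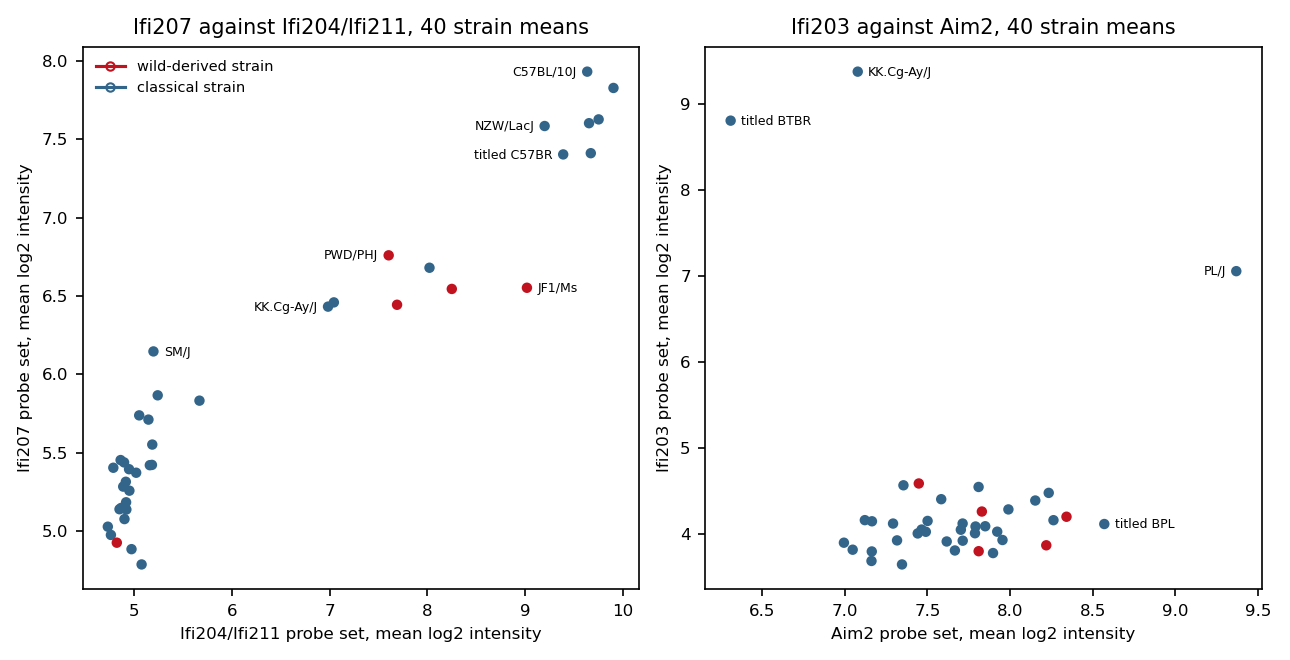
Mean log2 intensity per strain of Ifi207 against Ifi204/Ifi211 (left) and of Ifi203 against Aim2 (right), 40 strain means each, wild-derived strains in red and classical strains in blue. On the left r is 0.96 over 40 strains; on the right the 3 strains with high Ifi203 include the highest (PL/J) and the lowest (titled BTBR) strain for Aim2.

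Among the 10440 genes whose highest strain mean reached 7 log2 units, those most like Ifi204/Ifi211 after Ifi207 were Pctp (r = 0.78), which encodes a phosphatidylcholine transfer protein and lies on chromosome 11, and Ifi208 (r = 0.71). The level filter bears on this order, since Ifi208 passed it through JF1/Ms alone (7.04, with the next strain at 5.97) and Ifi209 (r = 0.84) did not pass. For Aim2 they were Rasa2 (r = 0.71) on chromosome 9, Rab11fip2 (r = 0.70) on chromosome 19 and Rabgap1 (r = 0.64) on chromosome 2. For Ifi203 they were Pde10a (r = 0.59), Plpp2 (r = 0.57) and Col6a3 (r = 0.57), with rho of 0.23, 0.14 and -0.12, well under their r.

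The genes that flank the cluster showed less spread over strains. Of the 10 measured genes on each side, mostly olfactory receptor genes, 4 of 20 were called in the F test and 2, Olfr433 and Olfr432, spanned at least 1 log2 unit, beside 56% and 24.5% of all probe sets. The median SD of strain means was 0.11 in the neighbours, against 0.52 in the 5 family probe sets and 0.14 in all probe sets. Of the neighbours, Olfr433 alone reached a strain mean of 7 log2 units. The part of low signal in their small spread was not tested. Olfr433 and Olfr432 were highest in WSB/EiJ, at 7.71 and 6.19, where Ifi204/Ifi211 was low.

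Next the members were set beside genes of their pathways, described by counts. Interferon-stimulated genes varied widely: 29 of 34 measured were called, and 25 spanned at least 1 log2 unit, beside 55.3% and 23.0% of all genes. As many as 18 of the 34 (52.9%) spanned at least 2 log2 units, beside 4.76% of all genes. Such wide ranges were therefore not particular to the Ifi200 family. The widest were Samd9l, an antiviral restriction factor (3.89 in SEA/GnJ to 11.81 in SM/J), and Oasl2, a 2′-5′ oligoadenylate synthetase-like gene (5.92 in MSM/Ms to 11.34 in C3H/HeJ). Ifit3 and Rtp4 followed, both lowest in MSM/Ms and highest in C3H/HeJ. The list mean had r of 0.28 with Ifi204/Ifi211, 0.22 with Aim2, 0.18 with Ifi203, -0.07 with Ifi202b and -0.21 with Ifi205 over 40 strains. Spearman's rho was higher for Ifi204/Ifi211 (0.47) and Ifi203 (0.41), and 0.21 for Aim2. C3H/HeJ, the highest strain for the summed list, had Ifi203 arrays at 3.90 and 3.94 and Ifi204/Ifi211 arrays at 5.05 and 5.31.

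Of all genes, 55.3% were called and 23.0% spanned at least 1 log2 unit, and the next counts stand beside these shares. Of the type I interferon receptor and signalling genes, 14 of 15 were called and 6 spanned at least 1 log2 unit. The widest of these 15 were Usp18, Irf7, Irf5 and Irf9. Of the cytosolic DNA sensing genes, 11 of 12 were called and 5 spanned at least 1 log2 unit. Sting1, the adaptor through which Ifi204 acts, ran from 6.47 in NOD/ShiLtJ to 7.94 in DDY/JclSidSeyFrkJ. Of the inflammasome partners of Aim2, 11 of 12 were called and 9 spanned at least 1 log2 unit. Pycard, the Aim2 adaptor, ran from 7.59 in NZB/BINJ to 9.26 in CAST/EiJ, and Casp1, the caspase it activates, from 7.82 in MSM/Ms to 9.47 in CAST/EiJ. The mean of this list had r of 0.27 with Aim2. At least 2 log2 units were spanned by 13.3% of the signalling genes and 8.33% each of the DNA sensing genes and the inflammasome partners, beside 4.76% of all genes.

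Marker genes of other cells moved with some members, and their part in these values was not tested. The T and NK cell list had r of -0.57 with Ifi204/Ifi211; 4 of its 9 measured genes were called, beside 55.3% of all genes. Of these, 3 spanned at least 2 log2 units, Cd3d (6.20 in the group titled C57BR to 10.23 in FVB/NJ), Cd3g and the NK cell gene Nkg7, while the T cell gene Cd3e spanned 6.75 to 7.13 (adjusted p = 0.72). The list also had r of -0.48 with Ifi205. Its summed intensity ran from 597 in the group titled C57BR to 1995 in FVB/NJ, with 636 in C57BLKS/J(662) and 632 in C57BL/6J. The B cell list had r of 0.44 with Ifi202b, or 0.26 without NZB/BINJ. Its summed intensity ran from 552 in FVB/NJ to 761 in NZB/BINJ, the strain with the highest Ifi202b. NZB/BINJ was also the highest strain for the summed erythroid list and for single markers of other cells, among them Cd4 and Mcpt8. The monocyte list had r of 0.30 with Ifi204/Ifi211, and its sums ran from 1422 to 2468. Summed intensity ran from 928 to 2332 for the dendritic cell list, 598 to 1292 for eosinophils, 301 to 355 for basophils and mast cells, 311 to 401 for erythroid cells and 1073 to 5401 for dividing progenitors. Among these 5 lists the largest correlations with a member were 0.39 (basophils and mast cells with Ifi205), -0.38 (erythroid cells with Aim2) and -0.33 (dividing progenitors with Ifi204/Ifi211). The neutrophil list ran from 98827 in the group titled BTBR to 109174 in SEA/GnJ.

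Pairs of related strains were compared next, because they differ in autoimmune traits. NZB/BINJ and NZW/LacJ, the parents of the lupus-prone hybrid, differed in 3 of the 5 family probe sets, beside 45.5% of all probe sets. Ifi204/Ifi211 was 4.96 and 5.15 in the NZB/BINJ arrays, against 9.16 and 9.24 in the NZW/LacJ arrays, a difference of -4.15 ± 0.23 log2 units (SE, adjusted p = 5.35e-20). Ifi202b was 4.08 and 4.37 in NZB/BINJ, against 3.61 and 3.63 in NZW/LacJ, a difference of 0.60 ± 0.14 (adjusted p = 0.000648). Neither pair of arrays overlapped, and without NZB/BINJ replicate 1 the differences were -4.05 (adjusted p = 8.39e-16) for Ifi204/Ifi211 and 0.75 (adjusted p = 0.00134) for Ifi202b. Aim2 was 6.85 and 7.24 in NZB/BINJ, against 7.85 and 7.85 in NZW/LacJ, a difference of -0.80 ± 0.19 (adjusted p = 0.000814). Without NZB/BINJ replicate 1, the array that stood apart, the Aim2 difference was -0.61 with an adjusted p of 0.0549, and the number of probe sets called over the whole array was 4378 rather than 11328. Without NZW/LacJ replicate 1 that number was 4157. Ifi203 differed by -0.27 ± 0.19 (adjusted p = 0.235) and Ifi205 by -0.26 ± 0.19 (adjusted p = 0.269). Ifi207 followed Ifi204/Ifi211, at -1.85 ± 0.26 (adjusted p = 2.79e-07).

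NOD/ShiLtJ, which develops autoimmune diabetes, and its resistant relative NOR/LtJ differed in 0 of the 5 family probe sets by limma, beside 5.56% of all probe sets, and in 1 at an unadjusted p under 0.05. That one was Aim2, at 7.52 and 7.65 in NOD/ShiLtJ, against 7.81 and 8.17 in NOR/LtJ (-0.41 ± 0.19, SE, adjusted p = 0.206). Among the other cluster genes Ifi208 was lower in NOD/ShiLtJ, at a mean of 4.57, against 5.47 in NOR/LtJ (-0.90 ± 0.26, adjusted p = 0.0307). MRL/MpJ and its ancestor LGJ differed in 0 of the 5 by limma, beside 3.84% of all probe sets, with 0 at an unadjusted p under 0.05. The Aim2 difference was -0.35 ± 0.19 (adjusted p = 0.445) and that of Ifi204/Ifi211 0.01 ± 0.23 (adjusted p = 0.99). The standard errors limit these pairs of 2 arrays each, and a small difference was not detectable.

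Wild-derived strains were set against classical strains with each strain counted once, at its mean. None of the 5 family probe sets was called by limma, beside 12.2% of all probe sets, and none had an unadjusted p under 0.05. Ifi204/Ifi211 averaged 7.48 ± 1.59 in the wild-derived strains (SD, n = 5) and 6.12 ± 1.90 in the classical strains (SD, n = 35). The difference was 1.35 ± 0.86 (SE, adjusted p = 0.323), with a 95% confidence interval of -0.39 to 3.09. Of the wild-derived strains, 4 lay above the gap, from 7.60 in PWD/PHJ to 9.02 in JF1/Ms, and WSB/EiJ lay near the bottom at 4.82.

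Aim2 averaged 7.93 ± 0.36 in the wild-derived strains and 7.62 ± 0.53 in the classical strains (SD, n = 5 and 35), a difference of 0.31 ± 0.24 (SE, adjusted p = 0.441) with an interval of -0.18 to 0.79. Ifi203 differed by -0.30 with an interval of -1.43 to 0.84, and all 5 wild-derived strains lay below its gap. Ifi202b and Ifi205 each differed by 0.03. Among the other cluster genes Ifi213 was higher in the wild-derived strains, at 6.23 ± 0.66, against 5.77 ± 0.22 in the classical strains (0.46 ± 0.14, SE, adjusted p = 0.0245), with JF1/Ms far above the rest at 7.28. Of the interferon-stimulated genes, 5 of 34 were lower in wild-derived strains and 0 higher, while of all 19752 genes 1336 were higher and 958 lower.

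**Figure D5:**
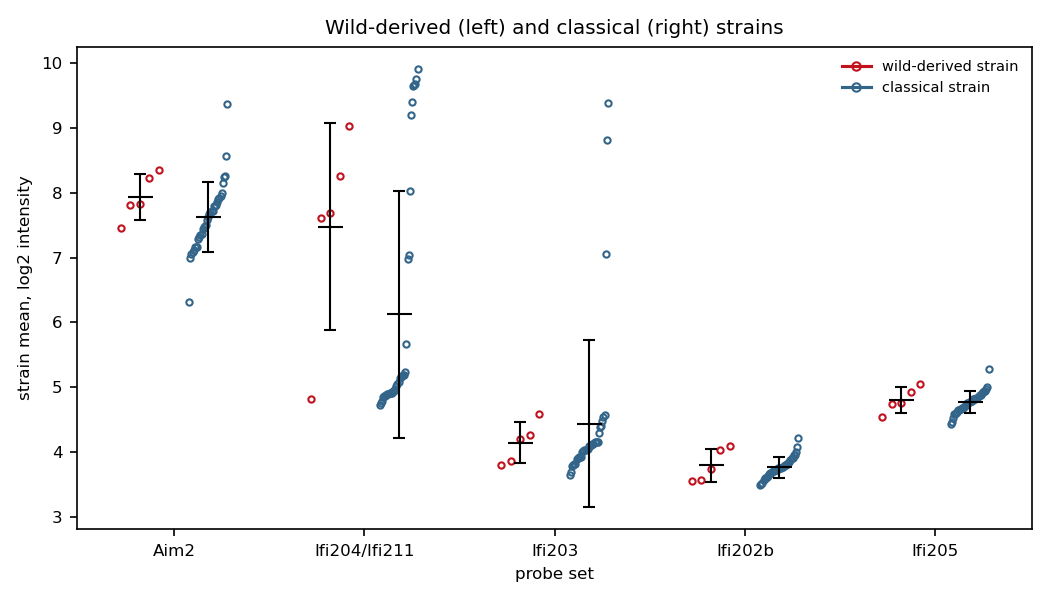
Strain means (open circles) of the 5 family probe sets in log2 intensity, wild-derived strains in red on the left of each pair and classical strains in blue on the right, with horizontal bars at the mean and whiskers of 1 SD. The groups overlap for every probe set, and WSB/EiJ is the low red point for Ifi204/Ifi211.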

How the data were processed

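Bone marrow neutrophils were profiled on 81 arrays. Per the submitters' processing notes, Affymetrix Power Tools and RMA were used, with no version given. The deposited table holds the authors' processed intensity of each probe set, not on a log scale by its range; the genome build is not given in the sources used here. Values were converted to log2 with no further scaling. Probe sets were named by the platform gene table. In comparisons of strains, precision is set by how many arrays a strain has, and p-values measure the spread between pools of mice. For wild-derived against classical strains, p-values measure the spread between strain means, and precision is set by the 5 and 35 strains.

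Tests used limma 3.58.1 in R 4.3.3 (lmFit, eBayes, Benjamini-Hochberg), with 1 mean per titled group, 41 residual and 7.93 prior degrees of freedom. Probe sets were called at an adjusted p under 0.05, adjusted over all probe sets. For the 39 comparisons with C57BL/6J, p-values were adjusted over all probe sets and comparisons together, and a difference of at least 1 log2 unit was required. Differences are first strain minus second. Spread is pooled over strains, so FVB/NJ and SWR/J, with 1 array each, are taken to vary like the others. The scripts were tested on simulated data.

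Members, lists and tests were chosen with earlier results of these data known. Genes were named by rule: family members with a probe set, the 3 most alike genes of members with a range of at least 2 log2 units, up to 4 widest genes of each list and 10 neighbours on each side; strains and other list genes were picked after their values were seen. In the lists, the brightest probe set stood for a gene that had more than 1. Lists covered other cluster genes, interferon-stimulated genes, interferon signalling, DNA sensing, inflammasome partners and markers of neutrophils, monocytes, B cells, T and NK cells, dendritic cells, eosinophils, basophils and mast cells, erythroid cells and dividing progenitors. Promoter windows came from RefSeq, GRCm38.p6. Alternatives were a level filter (mean of 7 or more), quantile normalization, the replicate number as a block, a robust variance prior with a trend, one median for all arrays, groups with conflicting labels left out or regrouped, groups of 1 array left out, each array left out, each wild-derived strain left out, classical strains alone, Spearman's correlation and, chosen after seeing the data, NZB/BINJ left out.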

Additional observations from a re-analysis of the deposited data

How the results depend on the processing

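The counts of called family probe sets were 4 over strains, 44 over the 39 comparisons with C57BL/6J, 3 for NZB/BINJ against NZW/LacJ and 0 for the other 3 comparisons, and they stayed within 1.5 times these counts under every alternative but 1. Requiring a mean of at least 7 left Aim2 as the only family probe set tested, so the counts were 1 over strains, 9 against C57BL/6J and 1 for NZB/BINJ against NZW/LacJ, and over all probe sets the last comparison gave 6331 calls, against 11328 without the filter. Leaving out each array gave 4 to 5 family calls over strains, 42 to 48 against C57BL/6J and 2 to 3 for NZB/BINJ against NZW/LacJ. Over all probe sets, these fits gave 4157 to 12835 calls for NZB/BINJ against NZW/LacJ, lowest without NZW/LacJ replicate 1 (4157) or NZB/BINJ replicate 1 (4378). They gave 451 to 1670 for NOD/ShiLtJ against NOR/LtJ (1385 with all arrays; lower without either NOD/ShiLtJ array or NOR/LtJ replicate 2) and 488 to 1116 for MRL/MpJ against LGJ (958 with all arrays; lower without MRL/MpJ replicate 2 or either LGJ array). For wild-derived against classical strains, 3039 probe sets were called in all, 1971 without JF1/Ms and 1796 without MSM/Ms, with 0 family calls in each; the cause was not tested.

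Reversals concerned differences that passed no test. Quantile normalization gave 0.14 for Ifi202b and 0.031 for Ifi205 in NOD/ShiLtJ against NOR/LtJ and 0.038 for Ifi203 in MRL/MpJ against LGJ. A common array median gave 0.07 for Ifi202b in NOD/ShiLtJ against NOR/LtJ, and -0.040 for Ifi202b and -0.049 for Ifi204/Ifi211 in MRL/MpJ against LGJ. Leaving out 1 array gave, for NOD/ShiLtJ against NOR/LtJ, -0.099 to 0.091 for Ifi202b, -0.23 to 0.47 for Ifi203 and -0.22 to 0.032 for Ifi205. For MRL/MpJ against LGJ it gave -0.092 to 0.14 for Ifi202b, -0.20 to 0.19 for Ifi203 and -0.046 to 0.074 for Ifi204/Ifi211. For wild-derived against classical strains it gave -0.0028 to 0.067 for Ifi202b and -0.031 to 0.10 for Ifi205. Without a whole strain that comparison gave -0.026 for Ifi205 (MSM/Ms left out) and -0.027 and -0.043 for Ifi202b (PWD/PHJ and WSB/EiJ left out). Spearman's rho was 0.15 for Ifi203 and Aim2, 0.60 for Ifi203 and Ifi204/Ifi211 and 0.71 for Ifi209 and Ifi204/Ifi211.

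Replicate numbers did not pair the arrays: over 595 pairs of the 35 groups with replicates 1 and 2, deviations of same-numbered arrays had a median correlation of 0.0037, and 24.9% were above 0.1. With the replicate block the family counts were again 4, 44 and 3, with 0 for the other comparisons. Regrouping by background label gave 42 calls against C57BL/6J, of which 30 strains were lower for Ifi204/Ifi211. It joined the arrays titled C57BR (9.40 and 9.38 for Ifi204/Ifi211) with those of CBA/CaJ (4.87 and 5.03). These counts thus come from fewer groups, 1 of them with a wide spread, and are not a like comparison. Low signal limits Ifi202b, Ifi205, Ifi209 and the low strains of Ifi203 and Ifi204/Ifi211.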
